A study of Mus musculus with 8 samples.

Results

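The 35 genes examined encode the proteins that recognize the ends of an intron at the start of splicing: the U1 and U2 snRNP proteins, their Sm ring, the SF3a and SF3b complexes and the factors that help U1 and read the branch point. They were taken as a named list of spliceosomal genes, and no measured value enters the rule, although the list was chosen with earlier results of these data known. All 35 are listed in each of the 8 count tables, among 55291 gene symbols, and all 35 were among the 16371 genes with enough reads to be tested. By role they fall into 3 U1 snRNP proteins, 7 U1 helpers and readers of the 5′ splice site, 4 readers of the branch point and polypyrimidine tract, 7 Sm proteins, 4 U2 snRNP proteins and helpers, 3 SF3a subunits and 7 SF3b subunits.

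RNA was sequenced from mouse embryonic stem (ES) cells of 2 edited lines, DHX35-dTAG and GPATCH1-dTAG, in which the named protein carries a tag that lets dTAG-13 send it to the proteasome. Each line received 200 nM dTAG-13 or the solvent DMSO for 4 h, and every group had 2 libraries, 8 in all. The cells are E14 by their labels, although the growth protocol given with them is for R1 cells in serum with LIF, PD0325901 and CHIR99021. Each tagged line was grown from picked colonies, the labels do not say which clone or clones were sequenced, and no untagged parent was sequenced here, so the tag is in every library of its line and line and clone cannot be told apart. Nothing states that the 2 libraries of a group came from separate cultures, so the p-values measure only the spread between these libraries, which may be technical. DHX35 is a helicase and GPATCH1 its G-patch partner. Whether removing either one changes the mRNA level of the factors that assemble on the intron before it was the question put to these genes.

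The U1 snRNP pairs with the 5′ splice site, SF1 and U2AF hold the branch point and the tract before the 3′ splice site, and the U2 snRNP then takes over the branch point with SF3a and SF3b around it. The Sm proteins form a ring on a short uridine-rich site in the U1, U2, U4 and U5 snRNAs, which the SMN complex loads in the cytoplasm. ES cells divide rapidly and need these particles in large amounts, and many splicing factors control their own mRNA through poison exons or retained introns. Counts per gene cannot separate such transcripts from productive ones, and 29 of the 35 members have an annotated retained-intron transcript and 18 an annotated nonsense-mediated decay transcript in GENCODE M21 (GRCm38).

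The parts of the U1 and U2 snRNAs that these proteins hold are printed to show what the members bind, as DNA letters of the genes Rnu1a1 (chr11:87422867-87423030, plus strand) and Rnu2-10 (chr11:101658238-101658428, plus strand) of GRCm38. In the line on the U1 5′ end the capitals mark bases that pair with the 5′ splice site, on both its exon and its intron side. They mark bases that pair with the intron in the line on the branch point region, and the Sm site in the other lines.
U1 5′ end (positions 1 to 26, pairing bases 3 to 11): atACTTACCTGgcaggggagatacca
U1 Sm site (positions 117 to 142, site 125 to 133): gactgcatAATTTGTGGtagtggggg
U2 branch point region (positions 25 to 50, pairing bases 33 to 38): gatcaagtGTAGTAtctgttcttatc
U2 Sm site (positions 91 to 116, site 99 to 106): ttaaatggATTTTTGGaagtaggagt
The snRNAs themselves were barely represented in the tables, with 17 to 33 counts for Rnu1a1 and 23 to 36 for Rnu2-10 per library, so only the proteins' mRNAs are described.

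The libraries held 12014203 to 14994173 counts, of which the 35 members took 0.513% to 0.659%, and a member had between 200 and 10950 counts in a library. Levels are given as CPM, counts scaled to a common library size by the TMM method. Differences are log2 fold changes from edgeR's quasi-likelihood test over all 16371 genes, with Benjamini-Hochberg adjusted p-values called under 0.05. No difference with treatment was called for the mRNAs of the targets: the log2 change of Dhx35 was 0.11 (standard error 0.09, adjusted p = 0.742) on DHX35 depletion, and Gpatch1 stood at 7.10 CPM in DMSO and 7.13 in dTAG-13 in its tagged line (log2 change 0.00, standard error 0.13). Gpatch1 was already lower in that line without dTAG-13, since the DHX35-dTAG line had 24.5 CPM in DMSO and 23.4 in dTAG-13 (log2 difference between lines -1.75, adjusted p = 6.52e-06). An mRNA cannot check the loss of the protein. Summed ES markers were between 3882 and 4565 CPM in all libraries, against 2.56 to 5.76 for 6 feeder markers (Postn at 0 in every library), 5.10 to 8.86 for 5 endoderm markers and 27.8 to 35.7 for 5 ectoderm and mesoderm markers. The 2 genes with the highest counts, which include ribosomal RNA, took 1.54% and 3.15% of the counts in the DMSO libraries of the DHX35-dTAG line and 11.98% and 20.2% in its dTAG-13 libraries. In the GPATCH1-dTAG line their shares were 4.23% and 20.9% in DMSO and 1.27% and 2.02% in dTAG-13, and the part of these shares in the results was not tested beyond other scalings of the counts.

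Replicate 1 of the DHX35-dTAG cells in DMSO stood apart, with a mean correlation of 0.982 with the other libraries (log2 CPM, all genes) against 0.992 to 0.993 for the others. It held the highest CPM of 13 members and the lowest of another 13, together 74.3% of the 35, a share close to the 72.2% among the 5354 tested genes in the members' range of mean CPM. In this library 10 of 35 members lay more than 1.25-fold from the median of the other libraries, and in each other library at most 1 did. The 10 make 28.6%, against 32.3% of those 5354 genes and 45.9% of all genes. Among the remaining 7 libraries the highest CPM of a member exceeded its lowest by a median of 1.15-fold, from 1.07-fold for Snrnp70 to 1.32-fold for Prpf39. For the members named below, log2 changes on DHX35 depletion are therefore also given from a fit without that library, in which 17037 genes were tested and 12 of the 35 members had the opposite sign.

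**Figure D1:**
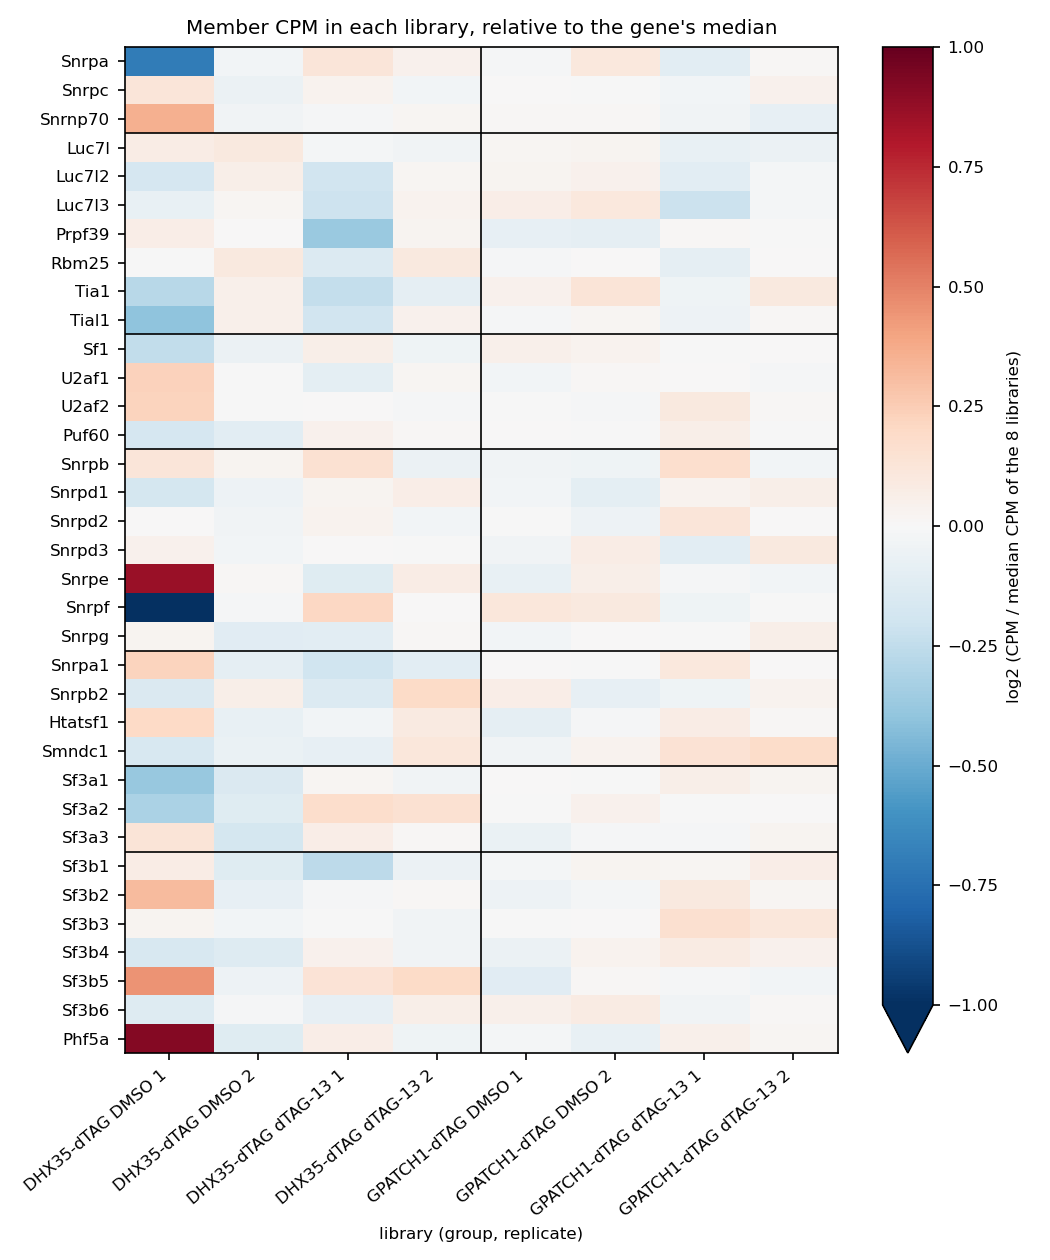
Heat map of the 35 members (rows, grouped by role from U1 at the top to SF3b at the bottom) in the 8 libraries (columns), colored by log2 of the CPM over the gene's median CPM, with values below -1 shown as -1. The first column, DHX35-dTAG DMSO replicate 1, holds the deepest colors, for Snrpf, Snrpa, Snrpe and Phf5a, while the other columns are pale throughout.

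Levels can be set between genes only per length, and CPM per kilobase of annotated exon was used for this (mean of 8 libraries). Snrpb, which encodes the B subunit of the Sm ring, was the highest of the 35 at 131 ± 8.7 CPM per kb (SD, n = 8). U2af1 (83.2 ± 5.7) and U2af2 (79.6 ± 4.8), which form the U2AF dimer, and Sf3b4 (78.8 ± 4.8) followed and did not differ beyond their spread. At the other end Prpf39 stood at 2.84 ± 0.25 CPM per kb, Tia1 at 3.51 ± 0.36 and Htatsf1 at 7.94 ± 0.54 (SD, n = 8 each), and over the libraries Prpf39 (2.26 to 3.07) overlapped Tia1 (2.96 to 3.92) but not Htatsf1 (7.35 to 8.97).

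Proteins of one particle did not have equal mRNA levels. The 3 SF3a mRNAs lay within 1.32-fold of each other (37.0 to 48.9 CPM per kb), whereas the 7 Sm mRNAs spanned 5.26-fold (24.8 to 131) and the 7 SF3b mRNAs 4.67-fold (16.9 to 78.8). By the length of the transcript with the longest coding sequence, an alternative chosen after seeing the data, these ranges became 1.68-fold, 7.90-fold and 7.19-fold. The order of the 35 genes depended on that choice (Spearman's rho 0.76 over the 35 genes, a description). Snrpc ranked 32 by all exons and 14 by that transcript, while Snrpb was first and Prpf39 and Tia1 were last by both.

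**Figure D2:**
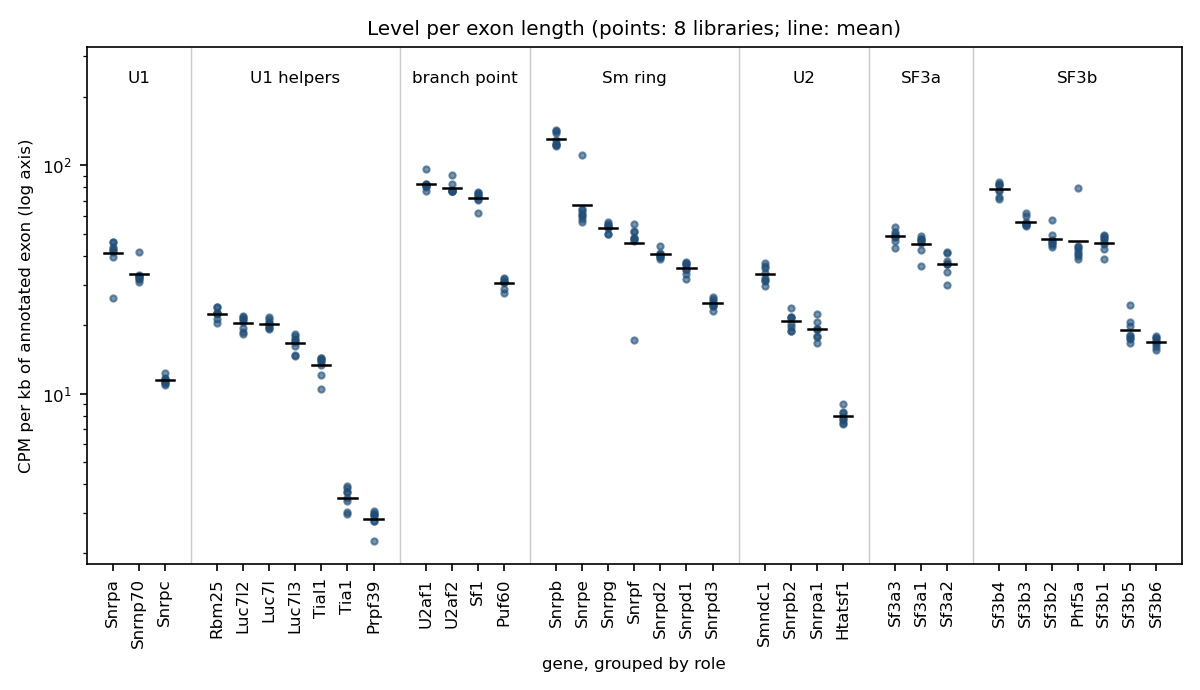
CPM per kilobase of annotated exon (log axis) of each member in the 8 libraries (points) with the mean (line), grouped by role. Snrpb is the highest at 131 CPM per kb, the U1 helpers Tia1 and Prpf39 are the lowest, the 3 SF3a genes are level with each other, and single points of Snrpe, Snrpf and Phf5a far from the rest belong to DHX35-dTAG DMSO replicate 1.

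No member passed the test in any of the 5 comparisons. On DHX35 depletion edgeR called 0 of the 35 members and 0% of all genes, with 3 members at an unadjusted p under 0.05 (8.57% of the members against 5.39% of all genes). On GPATCH1 depletion it called 0 members and 0% of all genes, with 0 members at an unadjusted p under 0.05 against 2.97% of all genes. Without DHX35-dTAG DMSO replicate 1, which enters there through the shared spread, these were 3 members (Smndc1, Sf3b3 and Luc7l3, 8.57%) and 8.41%. In that fit edgeR called 0 members and 0.299% of all genes, and from only the 4 GPATCH1-dTAG libraries 0 members and 0.803%. Across both lines together it called 0 members and 0% of all genes, with 2 members at an unadjusted p under 0.05 against 3.59% of all genes. DESeq2 called 0 members in each of the 5 comparisons. The calls depended on the DMSO libraries of the DHX35-dTAG line. Without its replicate 2, which leaves replicate 1 alone in that group, 17 members were called on DHX35 depletion (48.6%, and 28.8% of all genes) and 13 for the difference between the lines' responses (37.1%, and 20.9% of all genes). Without replicate 1 instead, 0 members were called in both, with 0.0117% and 0.0528% of all genes. With no filter on low counts, Snrpe, Snrpa, Snrpf and Phf5a were called on DHX35 depletion (11.4% of members, and 1.06% of all genes), and with scaling by total counts Snrpe and Phf5a were (5.71%, and 1.95% of all genes).

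All libraries share the estimate of a gene's spread, so the library that stood apart enters the intervals of both lines. The 95% interval of a member's log2 change had a median reach of ±0.23 in each line, and of ±0.78 for Snrpf on DHX35 depletion. On GPATCH1 depletion the interval lay within 0.5 on either side of zero for 32 of the 35 members and within 1 for all 35. On DHX35 depletion it lay within 0.5 for 30 members and within 1 for 32, and the members outside 1 were Snrpe, Snrpf and Phf5a.

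The U1 snRNP proteins and the Sm ring held some of the widest differences of the DHX35-dTAG line. SNRPA binds a stem loop of U1 snRNA. Snrpa (chr7:27187005-27196271, minus strand) had 77.8 and 124 CPM in the DMSO libraries and 137 and 130 in the dTAG-13 libraries, and 126, 136, 118 and 127 CPM in DMSO and dTAG-13 of the GPATCH1-dTAG line. The dTAG-13 libraries were above both DMSO libraries, but 7 of the 8 values were alike and replicate 1 in DMSO was 0.612 of the median of the others. The log2 change was 0.40 (standard error 0.18, adjusted p = 0.715), and 0.11 without that library. Snrpc, whose protein steadies the pairing of U1 with the 5′ splice site, was at 70.9 to 80.2 CPM in all 8 libraries (log2 change -0.02, and 0.07 without that library). Snrnp70, the scaffold of the particle that SR proteins contact, was at 319 CPM in replicate 1 in DMSO and at 235 to 252 in the other 7 (log2 change -0.17, and 0.04 without that library).

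SNRPF and SNRPE are neighbors in the Sm ring, and their genes had differences of opposite sign. Snrpf (chr10:93583029-93589706, minus strand) had 14.8 and 40.9 CPM in DMSO and 47.6 and 41.2 in dTAG-13 in the DHX35-dTAG line, against 44.5 and 44.0 in DMSO and 40.1 and 41.2 in dTAG-13 in the GPATCH1-dTAG line. One library was thus far below the other 7, and the log2 change of 0.67 (standard error 0.35, adjusted p = 0.715) became 0.12 without it. Snrpe (chr1:133603871-133610291, minus strand) had 153 and 84.7 CPM in DMSO and 77.2 and 88.6 in dTAG-13, against 79.8, 87.3, 83.5 and 82.7 in the other line. The same library was 1.83 times the median of the others, and the log2 change of -0.52 (standard error 0.22, adjusted p = 0.715) became -0.03 without it. The other 5 Sm mRNAs had log2 changes from -0.03 (Snrpb) to 0.16 (Snrpd1) with all libraries, and over the 7 Sm genes the median was 0.00. Without that library the same 5 ran from 0.02 to 0.10 and the median of the 7 was 0.04.

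SF3B proteins clamp the branch point helix, and PHF5A lies beside SF3B1 in the pocket that holds the branch point adenosine. Phf5a (chr15:81864520-81871911, minus strand) had 173 and 84.3 CPM in DMSO and 95.9 and 88.9 in dTAG-13, and 90.1, 87.0, 94.99 and 92.9 in the GPATCH1-dTAG line. Replicate 1 in DMSO was 1.92 times the median of the other 7. The log2 change of -0.47 (standard error 0.26, adjusted p = 0.715) turned to 0.13 without it. Sf3b1 itself, which binds the branch helix, was at 562 and 491 CPM in DMSO and 444 and 512 in dTAG-13, with overlap between the groups (log2 change -0.14, standard error 0.10, and -0.04 without replicate 1 in DMSO). Sf3b2, Sf3b3, Sf3b4, Sf3b5 and Sf3b6 had log2 changes of -0.13, -0.02, 0.15, -0.05 and 0.06. Without that library they were 0.08, 0.0037, 0.14, 0.22 and 0.0025. The median of the 7 SF3b genes was -0.05, or 0.08 without that library.

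**Figure D3:**
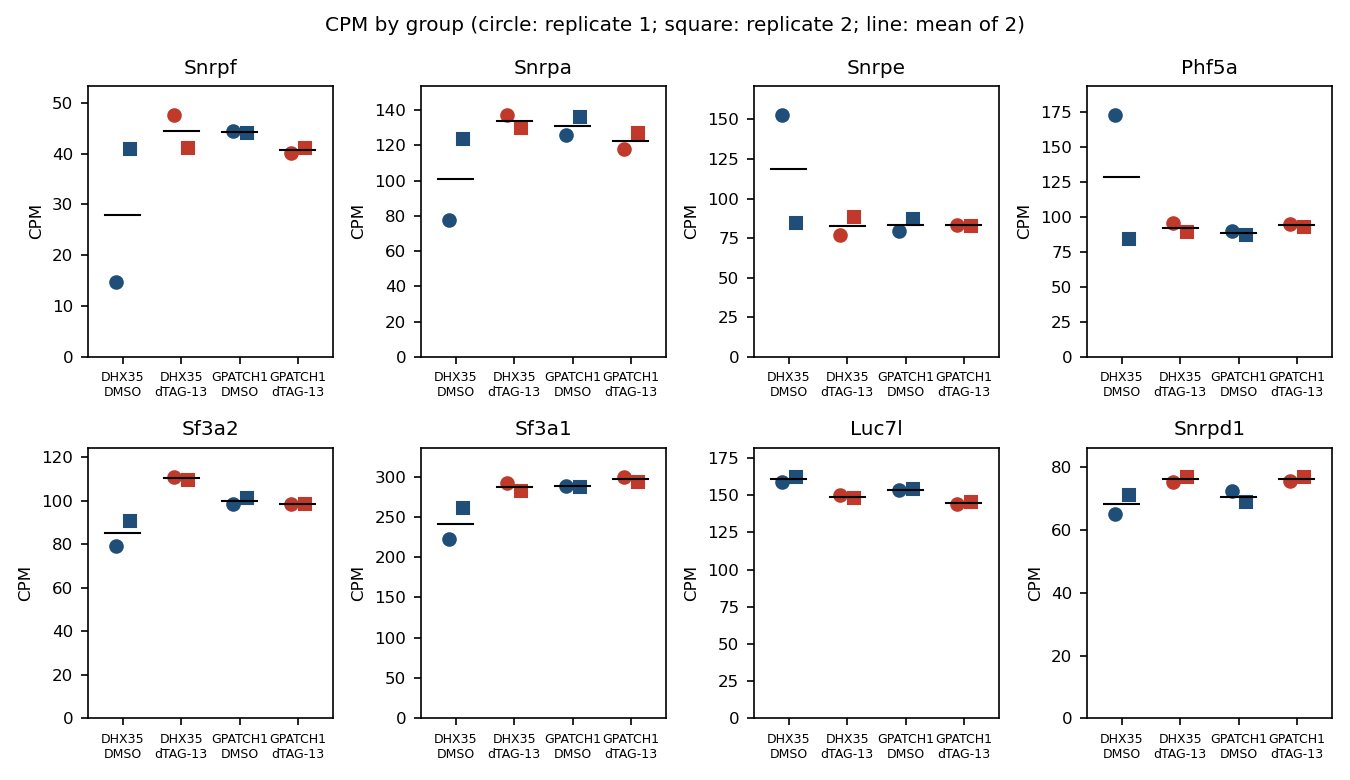
CPM of 8 members in each library by group (blue DMSO, red dTAG-13), circles for replicate 1, squares for replicate 2 and a line for the mean of 2, with axes from 0. In Snrpf, Snrpa, Snrpe and Phf5a one circle, DHX35-dTAG DMSO replicate 1, is far from the other 7 points, while in Sf3a2 and Sf3a1 both DMSO points of that line lie below all others.

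SF3a joins SF3b to the mature U2 snRNP. Of its 3 genes, Sf3a1 and Sf3a2 had both dTAG-13 libraries above both DMSO libraries in the DHX35-dTAG line, short of the threshold, and Sf3a3 overlapped. Sf3a2 (chr10:80798198-80804924, plus strand) had 79.2 and 90.6 CPM in DMSO and 111 and 109 in dTAG-13, and 98.5, 101, 98.4 and 98.6 in the GPATCH1-dTAG line. The groups of the DHX35-dTAG line did not overlap, and all values of the other line lay between them. The log2 change of Sf3a2 was 0.38 (standard error 0.09, 95% interval 0.18 to 0.58, adjusted p = 0.715), and 0.29 without replicate 1 in DMSO. Sf3a1 (chr11:4160350-4182541, plus strand) had 222 and 261 CPM in DMSO and 292 and 282 in dTAG-13, against 288, 288, 300 and 293 in the other line. Its groups did not overlap either (log2 change 0.25, standard error 0.09, adjusted p = 0.715, and 0.14 without that library). Sf3a3 had 149 and 121 CPM in DMSO and 143 and 137 in dTAG-13, with overlap, and its log2 change of 0.05 became 0.22 without that library and -0.08 without replicate 2 in DMSO. With scaling by total counts it was -0.18, where the median of all genes was -0.25.

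Among the U2 proteins, Snrpa1, whose protein holds a U2 stem loop together with that of Snrpb2, had 70.9 and 56.9 CPM in DMSO and 52.9 and 56.3 in dTAG-13. Both dTAG-13 libraries were below both DMSO libraries, the nearest pair by a narrow margin (log2 change -0.23, standard error 0.11, adjusted p = 0.715, and -0.06 without replicate 1 in DMSO). Snrpb2, Htatsf1 and Smndc1, the last of which binds symmetrically methylated Sm tails, had log2 changes of 0.07, -0.03 and 0.13, and of -0.02, 0.11 and 0.08 without that library. Of the branch point readers, Sf1 (0.16) and Puf60 (0.16) were higher in dTAG-13 without overlap, and U2af1 (-0.16) and U2af2 (-0.12) overlapped, with standard errors from 0.08 to 0.10. Without replicate 1 in DMSO these were 0.07, 0.13, -0.03 and -0.0021.

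Counting libraries rather than fitting, 8 members were higher in both dTAG-13 libraries than in both DMSO libraries of the DHX35-dTAG line, against 14.6% of all genes, and 2 were lower, against 14.1%. Among the 5354 genes in the members' range of mean CPM these shares were 16.8% higher and 8.54% lower. The 8 and the 2 members make 22.9% and 5.71% of the 35. The 8 were Puf60, Sf1, Sf3a1, Sf3a2, Sf3b4, Snrpd1, Snrpf and Snrpa, and the 2 were Luc7l and Snrpa1. Against replicate 2 in DMSO alone, a count added after seeing the data, both dTAG-13 libraries were higher for 18 members (51.4%, and 30.7% of all genes). They were lower for 6 (17.1%, and 30% of all genes). That count was not made for the genes in the members' CPM range. The median log2 change of the 35 was -0.02 (all genes -0.01), with 14 above zero and 21 below, and 0.04 without replicate 1 in DMSO, with 22 above and 13 below.

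On GPATCH1 depletion the 35 members had log2 changes from -0.20 to 0.16, with a median of 0.03 (all genes 0.00). The 3 highest were Smndc1, Sf3b3 and Snrpb. Smndc1 had 79.7 and 83.5 CPM in DMSO and 90.1 and 92.6 in dTAG-13 (log2 change 0.16, standard error 0.09). Sf3b3, a scaffold of propeller domains, had 605 and 607 CPM in DMSO and 679 and 654 in dTAG-13 (0.14, standard error 0.08). In both genes the dTAG-13 libraries were above the DMSO libraries. Snrpb had 244 and 243 CPM in DMSO and 283 and 246 in dTAG-13, so that 1 library carried most of its difference (0.12, standard error 0.10), and the adjusted p of all these members rounds to 1.00.

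The 3 lowest were Luc7l3, Snrpf and Luc7l2. LUC7-like proteins are the relatives of a yeast U1 component that tunes the choice of 5′ splice site. Luc7l3 (chr11:94287890-94321988, minus strand) had 130 and 133 CPM in DMSO and 106 and 122 in dTAG-13 (log2 change -0.20, standard error 0.11). Luc7l2 had 257 and 260 CPM in DMSO and 235 and 249 in dTAG-13 (-0.10, standard error 0.11). In both the dTAG-13 libraries were below the DMSO libraries. Snrpf, at 44.5 and 44.0 CPM in DMSO and 40.1 and 41.2 in dTAG-13, also did not overlap (-0.12), and its standard error of 0.34 became 0.08 when the DHX35-dTAG DMSO replicate 1 was left out of the shared estimate.

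In this line 13 members, 37.1%, were higher in both dTAG-13 libraries, against 21.5% of all genes and 31.4% of the genes in the members' CPM range, and 7, or 20%, were lower, against 20.3% of all genes and 14.3% in that range. The 4 U2 proteins and helpers were all above zero (0.01 to 0.16), as were 6 of 7 SF3b genes (median 0.07), while 6 of 7 U1 helpers were below zero (median -0.06). The count of U1 helpers rested on replicate 1 in dTAG-13, without which 3 of 7 were below zero (median 0.01), with Prpf39, Rbm25, Tia1 and Tial1 above. Snrpb2, the lowest of the 4 U2 genes, fell below zero without replicate 2 in DMSO or in dTAG-13, and Sf3b5 without replicate 1 in DMSO. Of all genes 50.8% were above zero in this comparison, and of the 5354 genes in that range 62.8%, and these groups were not tested against other genes.

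**Figure D4:**
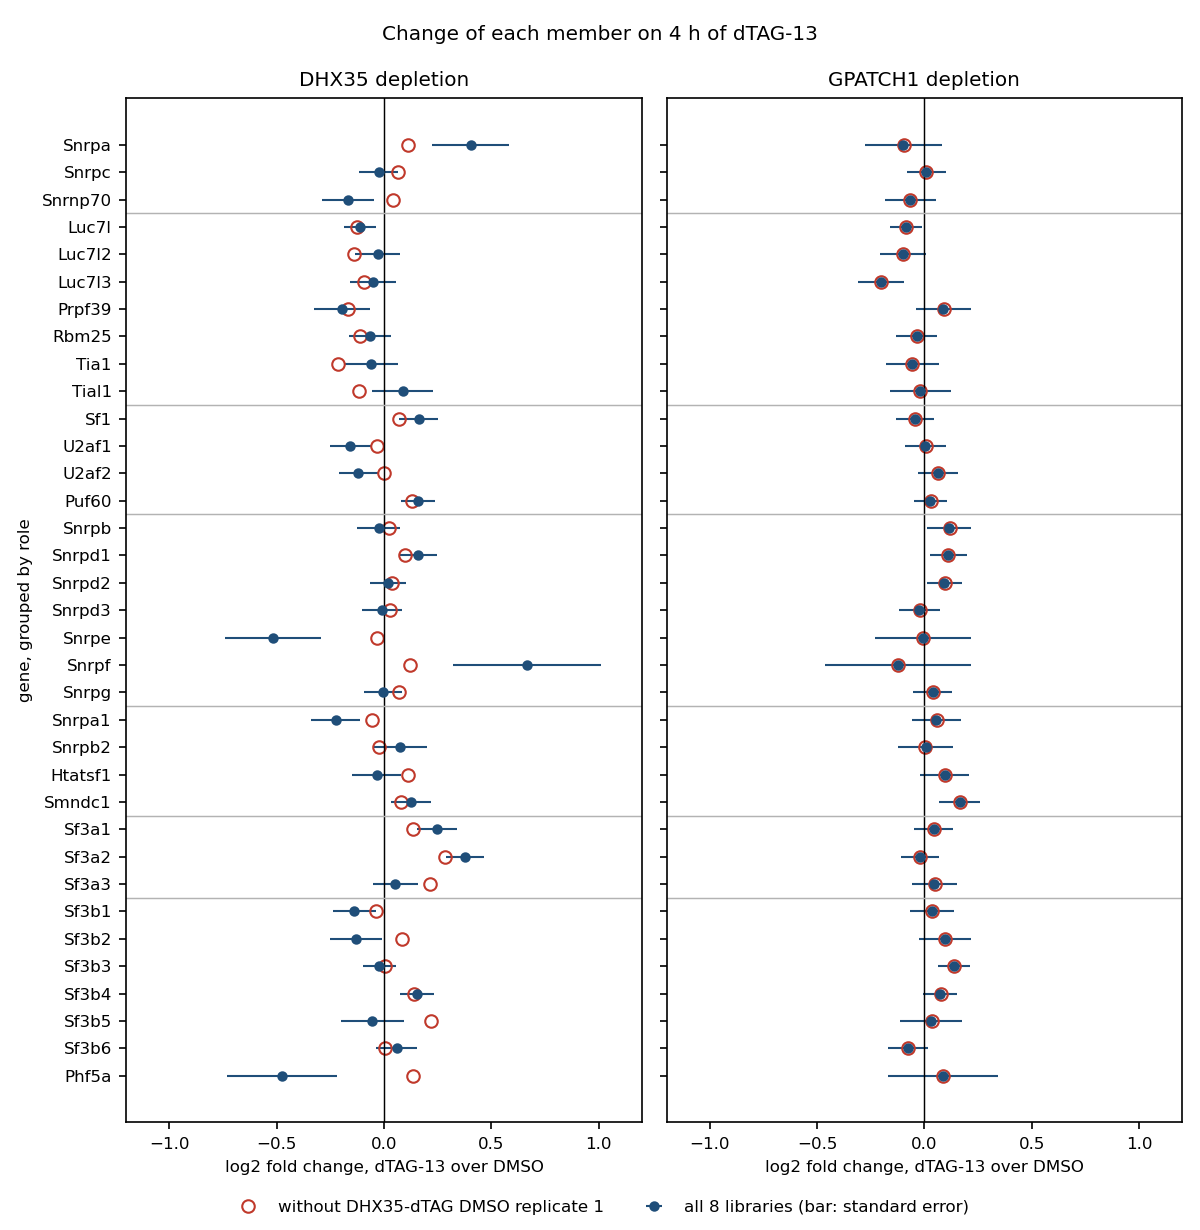
Log2 fold change of each member, dTAG-13 over DMSO, in the DHX35-dTAG line (left) and the GPATCH1-dTAG line (right), blue points with standard errors from all 8 libraries and red rings from the 7 libraries without DHX35-dTAG DMSO replicate 1. On the left the points of Snrpf, Snrpa, Snrpe and Phf5a lie far from zero and their rings close to it, and on the right points and rings coincide within -0.20 to 0.17.

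With line in the model, dTAG-13 was compared with DMSO over all 8 libraries, 4 against 4. Snrpd1, an Sm protein that pairs with SNRPD2 in ring assembly, was the single member whose 4 dTAG-13 libraries were all above its 4 DMSO libraries, a pattern that 1.03% of all genes had and 2.86% of the members. Its CPM was 65.2, 71.1, 72.3 and 68.9 in DMSO and 75.2, 77.0, 75.7 and 76.9 in dTAG-13 (log2 change 0.14, standard error 0.06, adjusted p = 0.963). Luc7l (chr17:26252896-26285504, plus strand) was the single member with all 4 dTAG-13 libraries below, against 1.22% of all genes. Its CPM was 159, 162, 153 and 154 in DMSO and 150, 148, 144 and 145 in dTAG-13 (log2 change -0.10, standard error 0.05, adjusted p = 0.963). Both differences were small, and neither group of 4 had a library far from the rest in Luc7l.

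The other extremes across both lines were again Snrpf (0.26, standard error 0.26), Sf3a2 (0.18, standard error 0.09), Snrpa (0.15, standard error 0.14), Snrpe (-0.26, standard error 0.17), Phf5a (-0.20, standard error 0.20) and Luc7l3 (-0.13, standard error 0.08), all with an adjusted p of 0.963. Without DHX35-dTAG DMSO replicate 1, Snrpf, Snrpa, Snrpe and Phf5a came to -0.03, -0.01, -0.02 and 0.10, while Sf3a2 and Luc7l3 kept their sign at 0.10 and -0.16. The range of all 35 then ran from -0.16 (Luc7l3) to 0.13 (Smndc1), with 0 members called and 8 at an unadjusted p under 0.05 (22.9%, and 7.22% of all genes).

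Of the 7 U1 helpers, 6 were below zero in each line and across both (median across both -0.06), with Tial1 the exception in the DHX35-dTAG line and across both and Prpf39 in the GPATCH1-dTAG line. Without DHX35-dTAG DMSO replicate 1 all 7 were below zero on DHX35 depletion (-0.21 for Tia1 to -0.09 for Luc7l3) and across both lines (median -0.10), where the median of the 35 members was 0.01. Other libraries turned the count on DHX35 depletion the other way: 2 of 7 were below zero without DHX35-dTAG dTAG-13 replicate 1 (median 0.05) and 3 of 7 without DMSO replicate 2 (median 0.0075), against 7 of 7 without dTAG-13 replicate 2. Across both lines the count was 5 to 7 of 7 with any 1 library left out, and on GPATCH1 depletion 3 or 6 of 7. With all libraries 51.5%, 49.2% and 51.9% of all genes were below zero on DHX35 depletion, GPATCH1 depletion and across both, and 45.1%, 37.2% and 40% of the 5354 genes in the members' CPM range. Without that library 49.4% of all genes were below zero on DHX35 depletion and 49.1% across both, and no test of the 7 as a group was made. The 7 comprise Luc7l, Luc7l2, Luc7l3, the U1-associated Prpf39 and Rbm25, and Tia1 and Tial1, which bind uridine-rich tracts after the 5′ splice site. EdgeR called 0 of the 7, and across both lines 0 had an unadjusted p under 0.05 with all libraries and 3 without that library, where 7.22% of all genes had one. With scaling by total counts, which moved the median of all genes by 0.16 on GPATCH1 depletion, Luc7l, Luc7l2, Rbm25, Tia1 and Tial1 were above zero in that line, at 0.07 to 0.15, where the median of all genes was 0.17. The 3 SF3a genes were above zero in the DHX35-dTAG line (median 0.25) and across both lines (0.14), with Sf3a2 at -0.02 in the GPATCH1-dTAG line and, with scaling by total counts, Sf3a3 at -0.18 in the DHX35-dTAG line, where the median of all genes was -0.25. Without DHX35-dTAG DMSO replicate 2, Sf3a3 was below zero on DHX35 depletion (-0.08) and across both lines (-0.0061), and Sf3a1 and Sf3a2 were above zero in these 2 comparisons with any 1 library left out.

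The lines themselves, with treatment in the model, differed in 0.788% of all genes, and in 0 of the 35 members by edgeR. At an unadjusted p under 0.05 there were 2 members, 5.71% of them, against 15.3% of all genes. No member had all 4 libraries of one line above or below those of the other, which 5.63% of all genes had in the higher and 6% in the lower direction. Tia1 had 46.6, 58.6, 47.9 and 53.1 CPM in the DHX35-dTAG line and 58.3, 61.8, 54.8 and 60.6 in the GPATCH1-dTAG line. The lines overlapped in the range of 54.8 to 58.6. Its log2 difference was 0.19 (standard error 0.08, adjusted p = 0.312), and 0.13 without DHX35-dTAG DMSO replicate 1. Sf3b5 had 94.2, 66.5, 75.8 and 78.9 CPM in the DHX35-dTAG line and 63.7, 69.4, 68.4 and 67.6 in the other. Thus 3 of its 4 DHX35-dTAG libraries were above all of the other line. The difference was -0.23 (standard error 0.10, adjusted p = 0.31), and -0.11 without DHX35-dTAG DMSO replicate 1. The remaining extremes were Snrpf (0.26), Sf3a1 (0.15), Snrpe (-0.25) and Phf5a (-0.26), with adjusted p-values from 0.338 to 0.659. Snrpf (-0.03) and Phf5a (0.04) changed sign without DHX35-dTAG DMSO replicate 1, Sf3a1 came to 0.09 and Snrpe lay between Snrpf and zero. Without DHX35-dTAG DMSO replicate 1 Sf3b1 was called, as were 5.95% of all genes (0.17, standard error 0.05, adjusted p = 0.0475), while its difference with all libraries was 0.11 (adjusted p = 0.489).

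Whether the response to dTAG-13 differed between the lines was tested as an interaction, which called 0% of all genes and 0 members by edgeR, with Sf3a2 the single member at an unadjusted p under 0.05 (2.86% of members against 3.91% of all genes). Its log2 change on GPATCH1 depletion minus that on DHX35 depletion was -0.40 (standard error 0.13, 95% interval -0.68 to -0.11, adjusted p = 0.862), and -0.30 without DHX35-dTAG DMSO replicate 1 (adjusted p = 0.655). Scaling by total counts, which moved the median of all genes by 0.40 in this comparison, put it at 0.0091. The wider values of Snrpf (-0.79), Phf5a (0.56), Snrpe (0.51) and Snrpa (-0.50) fell to -0.24, -0.05, 0.03 and -0.21 without that library. For 3 members, 8.57%, the groups did not overlap in either line and lay on opposite sides (Sf1, Snrpa1 and Snrpf), against 6.21% of all genes and 5.96% of those in the members' CPM range.

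Genes of the same pathway outside the 35 gave like counts. Of 17 other proteins associated with U1 or U2, 16 had enough reads (U2af1l4 did not), and edgeR called 0 of them in each comparison, with 1, 0 and 0 at an unadjusted p under 0.05 on DHX35 depletion, GPATCH1 depletion and across both. Between lines 2 of them (12.5%) had one, against 15.3% of all genes. One was Rbm5, higher in the GPATCH1-dTAG line by 0.31 on the log2 scale (adjusted p = 0.115), and called there without DHX35-dTAG DMSO replicate 1 (0.24, adjusted p = 0.00819). Their log2 changes ran from -0.25 (Snrpn, a tissue-restricted relative of Snrpb) to 0.33 (Cherp) on DHX35 depletion, and these 2 were at -0.15 and 0.09 in the fit without DHX35-dTAG DMSO replicate 1. Another 16 genes load, methylate or cap the particles, among them the SMN complex genes Smn1 and Gemin2 and the Sm methylation genes Prmt5 and Wdr77. Of these 16, 0 were called in each comparison. At an unadjusted p under 0.05 there were 0 on either depletion or across both, and 1 between lines. Gemin2 was at a log2 change of -0.26 (standard error 0.17) and Wdr77 at -0.23 (standard error 0.12) on DHX35 depletion. Both were highest of the 8 libraries in DHX35-dTAG DMSO replicate 1 (44.4 CPM against 27.5 to 33.4, and 131 against 94.6 to 107), and without it they were at 0.04 and -0.04.

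The promoters of the members were read from the RefSeq table (GRCm38.p6, 250 bases before to 50 after each start). Of the 35 members 27 had an entry, with 33 windows. The windows were searched on either strand for 6 motifs, and the one shown was chosen as the widest of the 6 differences. Its letters, CCGGAAG, which ETS factors bind, stood in 12 of the 33 windows (36.4%, 11 genes), against 8.86% of all 32851 windows and 16.9% of the 13797 windows of tested genes. All 3 SF3a genes had it, and their stretches are shown because each subunit of that complex has a match. So had Sf3b2, Sf3b3, Sf3b6, Smndc1, Snrpb2, Snrpc, Snrpe and Snrpg. The 11 genes did not share a direction of change on either depletion, and no link of the motif with a change was tested. GGGCGG, which SP factors bind, stood in 60.6% of the members' windows and 62.2% of those of tested genes, and TATAAA in 9.09% and 7.15%. GCATGCG, from the NRF1 site, stood in 9.09% and 6.21%, AAGATGGC, which YY1 binds, in 6.06% and 4.20%, and CCAAT in 33.3% and 38.0%. The 3 SF3a stretches are printed 5′ to 3′ on the plus strand with the match, or its reverse complement CTTCCGG, in capitals. Their starts are those of RefSeq, which for Sf3a1 and Sf3a2 lie inside the GENCODE spans given above.
Sf3a1 (chr11:4160337-4160363, match 7 to 1 bases before the start): gagggcgggaCCGGAAGtgctcccgcg
Sf3a2 (chr10:80798649-80798675, match 76 to 70 bases before the start): gcctttgctcCCGGAAGggatcgcttc
Sf3a3 (chr4:124714761-124714787, match 90 to 84 bases before the start): ccccaagacaCTTCCGGgacacgcgga
A match of letters is a description and shows no binding.

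Some of these mRNAs cannot be fully separated from copies. By alignment of transcripts, 11 members had 20 near-identical copies (at least 95% identity over at least 150 bases), 19 of them pseudogenes. The copies of Snrpg drew 2246 counts over the 8 libraries against 9125 for Snrpg, and the copy of Snrpe 692 against 10006, so reads could have been split there. The copy of Snrpf had 33 counts against 4263, and Phf5a had none. In addition 14 members overlap a gene on the opposite strand, such as Ccdc38 at Snrpf and Plekhj1 at Sf3a2, and 7 one on the same strand. In RNA from whole cultures, fewer cells of a kind and less RNA per cell cannot be told apart.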

How the data were processed

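The authors removed ribosomal RNA, mixed in human DLD-1 RNA, made stranded libraries and, per the labels, used FastQC 0.11.9, Trim Galore 0.6.6, STAR 2.7.5c and DESeq2 1.26.0 with mm10 and hg19. They deposited raw read counts per gene, 1 table per library. The counting program, annotation and strand setting are not given in the sources used here, so antisense, overlapping and copied genes are uncertain. The human RNA was not used.

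Counts were tested with edgeR 4.0.16 (R 4.3.3; TMM, filterByExpr, glmQLFit and glmQLFTest, default settings), 1 term per group over all 8 libraries, or line plus treatment, with Benjamini-Hochberg adjustment at 0.05. Standard errors are the log2 change divided by the square root of F. CPM used TMM sizes. The common coefficient of variation between replicates was 11.2%. The procedure was tested on simulated data.

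The members and gene lists were chosen with earlier results of these data known. Log2 values were given for called members and for the 3 highest and 3 lowest members of each comparison except the interaction. They were also given for members whose treated and control libraries did not overlap across both lines. Most of these members also have CPM by library, a standard error and an adjusted p. Other members were named after their values were seen. Samples were not treated as paired by replicate number, because correlations of replicate differences (0.04 to 0.30) were not all above 0.1. All of these correlations were above zero, and a shared effect of replicate number was not tested beyond the replicate block. Replicates differed beyond sampling noise. Alternatives were DESeq2 1.42.0, 2 other scalings, 2 other filters, leaving out the 2 most counted genes, a replicate block, only 4 libraries, and each library left out.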

Additional observations from a re-analysis of the deposited data

Results flagged for a closer look

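For 3 members both dTAG-13 libraries lay on one side of the DMSO libraries in the DHX35-dTAG line and on the other side in the GPATCH1-dTAG line, 8.57% of the 35 against 6.21% of all genes. The log2 change on GPATCH1 depletion minus that on DHX35 depletion was 0.28 for Snrpa1 (standard error 0.16), -0.79 for Snrpf (standard error 0.48) and -0.20 for Sf1 (standard error 0.13). The interaction test of edgeR gave each an adjusted p of 0.862, so none of these differences passed. Without DHX35-dTAG DMSO replicate 1 they were 0.11, -0.24 and -0.11.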

How the results depend on the processing

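DESeq2 called 1 gene on DHX35 depletion, 4 across both lines, 227 between lines and 9 for the interaction. Scaling by total counts, which moved the median of all genes by -0.24 on DHX35 depletion, 0.16 on GPATCH1 depletion and 0.40 for the interaction, called 319, 10, 13 and 179 genes (each depletion, both lines, interaction) and 2 members on DHX35 depletion, Snrpe and Phf5a. The members' medians were then -0.26, 0.19, -0.042 and 0.43, within 0.04 of the median of all genes in each comparison, and Snrpf (0.042) and Luc7l2 (0.067) on GPATCH1 depletion and Sf1 (0.20) for the interaction changed sign, among 13 members on GPATCH1 depletion, 10 on DHX35 depletion, 4 across both lines, 2 between lines and 13 for the interaction, Sf3a2 (0.0091) included. Without an expression filter 345, 21, 80, 920 and 140 genes were called (each depletion, both lines, between lines, interaction), with 4 members on DHX35 depletion (Snrpe, Snrpa, Snrpf and Phf5a) and 1 for the interaction (Snrpf). The cause was not tested. With only the 4 libraries of a line 1 gene was called on DHX35 depletion and 127 on GPATCH1 depletion.

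The replicate block called 0 members in each comparison and 2 genes for the interaction, and changed no member's call. The correlation of same-numbered deviations was above 0.1 for 4 of the 6 pairs of groups.

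Leaving out 1 library at a time, the genes called ranged from 0 to 4949 on DHX35 depletion, 0 to 51 on GPATCH1 depletion, 0 to 8 across both lines, 27 to 1013 between lines and 0 to 3592 for the interaction. Members called ranged from 0 to 17, 0 to 0, 0 to 0, 0 to 1 and 0 to 13, and their medians from -0.061 to 0.037, 0.010 to 0.035, -0.0084 to 0.016, 0.021 to 0.060 and -0.012 to 0.052. The highest counts, 4949 genes and 17 members on DHX35 depletion and 3592 genes and 13 members for the interaction, came without DHX35-dTAG DMSO replicate 2, which leaves replicate 1 as that group's lone library, assumed to vary like the others. Without replicate 1 instead, 2 genes and 0 members were called on DHX35 depletion, and Phf5a (0.13 on DHX35 depletion, 0.10 across both lines, 0.044 between lines), Snrpa (-0.014 across both) and Snrpf (-0.025 across both, -0.029 between lines) changed sign, among 12 members on DHX35 depletion, 11 across both lines, 11 between lines, 10 for the interaction and 0 on GPATCH1 depletion. With each library left out in turn these ran from -0.89 to 0.13, -0.32 to 0.10 and -0.39 to 0.044 for Phf5a, to 0.24 for Snrpa, and to 0.47 in both comparisons for Snrpf. DESeq2's size factors, at least 10 counts in every library and leaving out the 2 most counted genes left each member count at 0. With 2 libraries a group, the 95% interval of a member's log2 change on either depletion reached a median of 0.23 to either side.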
